A study of Mus musculus with 4 samples.

Results

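The genes described here are the chemokines, interleukins, tumour necrosis factor (TNF) superfamily members and colony-stimulating factors of the mouse, with the receptors that carry the same family names. They were taken by gene symbol from a table of 22802 gene loci, and 157 rows were found. The symbols begin with Ccl, Cxcl, Il, Tnfsf or Tnfrsf and a digit, or are Cx3cl1, Csf1 to Csf3, Tnf, Lif, Lifr, Osmr, Cntfr, Clcf1 or Ackr3, and Il17rd was left out. Expression had been measured by RNA sequencing in cells sorted from the testis interstitium, the tissue between the seminiferous tubules, of C57BL/6J mice at postnatal day 10. All animals carried an mFLE-Cre transgene and the CAG-CAT-EGFP reporter, which makes EGFP after Cre has acted. There were 2 samples of EGFP-positive, laminin-negative cells and 2 of EGFP-positive, laminin-positive cells. By the study's design text the laminin-negative population showed weak EGFP, so EGFP level and laminin staining cannot be told apart here. The labels name neither the cells in which mFLE-Cre is active nor the number of animals behind a sample, so p-values cover just the spread among these libraries, and that spread may be technical.

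Chemokines are small secreted or membrane-bound proteins that guide the migration of cells through G protein-coupled receptors, and atypical receptors such as Ackr3 bind and remove them. Many interleukins and their relatives signal through receptor chains that activate JAK kinases and STAT transcription factors. Several of them, among them Lif, Clcf1 and Il6, share the receptor chain gp130, which the gene Il6st encodes. TNF ligands bind trimeric receptors that act through TRAF adaptors on NF-kB or on cell death pathways. In the testis interstitium such factors are known to act between resident macrophages, Leydig cells, vessels and fibroblast-like cells.

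The deposited values were FPKM, a level that corrects the fragments of a gene for its transcript length and for the size of the library, and they summed to between 491475 and 548986 per library. Rows that reached 1 FPKM in at least 2 libraries were tested, 12348 in all, and 52 of the 157 members passed. Sums over marker lists differed between the populations. Leydig cell markers (8 of 8 tested lower) summed to 5058 and 4796 FPKM in laminin-negative and to 246 and 195 FPKM in laminin-positive libraries. Most of the laminin-negative sums came from a row that merges Insl3 with Jak3, at 4080 and 3822 FPKM. Interstitial fibroblast markers were lower in 7 of 8 cases. Smooth muscle and peritubular myoid markers (10 of 10 higher) summed to 452 and 444 against 8300 and 8436 FPKM, and pericyte markers were higher in 9 of 9 cases. Macrophage (10 of 10 tested), Sertoli cell (6 of 8) and germ cell (7 of 9) markers were higher in laminin-positive libraries too. Over all tested rows 26.6% were higher and 26.3% lower. Tested markers that reached 1 FPKM in a single population, among them Adgre1, Amh, Ddx4, Esam and Lum, could not overlap between the populations. Lymphocyte, granulocyte and mast cell markers had no tested member. Of 10 endothelial markers 5 were tested, and 2 were higher (Esam and Emcn), 2 lower (Cdh5, from a mean of 169 to 9.57 FPKM, and Tek) and 1 not called (Egfl7). The untested ones, Pecam1, Kdr, Tie1, Vwf and Cldn5, had means of at most 0.829 FPKM. The interstitial genes Tcf21 (335 and 471 FPKM) and Pdgfra (320 and 251 FPKM) were abundant in laminin-negative and laminin-positive cells alike. In bulk samples fewer cells of a type and less RNA per cell cannot be told apart.

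The comparison asked how the family differed between laminin-positive and laminin-negative cells. Laminin-negative cells held more of the chemokines Cxcl12 and Cxcl1 and of the ligand Lif, together with most measured chains of the gp130 receptors. Laminin-positive cells held more of the chemokines Cx3cl1, Ccl17, Ccl3 and Ccl4, of Il34 and of the receptor chain Il15ra. Lif, Ccl17, Ccl3, Ccl4 and Il34 entered the test only because they reached 1 FPKM in the population where they are high. By limma with Benjamini-Hochberg adjustment over all rows, 39 of the 52 tested members differed (75%), where 52.9% of all tested rows did. Of the 52, 15 were higher in laminin-positive cells (28.8%, near the background of 26.6% of all tested rows) and 24 lower (46.2%, background 26.3%). The tested members had a median log2 difference of −0.16, beside 0.01 over all tested rows. Calls of 1 or more in log2 difference were made for 7 of the 52 on the higher side (13.5%, background 7.29% of all tested rows) and for 9 on the lower side (17.3%, background 5.89%). All shares given for groups and lists below are of tested rows and stand against these backgrounds. The libraries of the populations did not overlap in 46 tested members (88.5%, background 77.2%).

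These counts and shares depend on the filter and are not support for a difference of the family. Of the 52, 10 passed it through a single population, so their libraries could not overlap between the populations. These 10 were Ccl17, Ccl3, Ccl4, Cxcl2 and Il34, high in laminin-positive cells, and Ccl7, Lif, Il31ra, Il2ra and Tnfrsf1b, high in laminin-negative cells. Their calls and adjusted p-values below are to be read with that selection. Among rows at 1 FPKM or more in all 4 libraries, 72.5% of 40 members and 50.3% of 11155 rows were called. With no filter on low values the shares lay close together, at 38.3% of 133 members and 36.2% of 18255 rows. With libraries scaled to equal FPKM sums over all rows but the ribosomal precursor Rn45s, which stayed in the table, 64.1% of all calls were higher, against 50.3% as deposited, and the median over all rows moved from 0.01 to 0.11. The members then counted 17 higher and 22 lower. When each row's variance was estimated on its own, 8 members were higher and 8 lower, where 20.7% of all rows were called. These 16 were Cx3cl1, Ccl3, Ccl4, Tnf, Il34, Il15ra, Il1rap and Tnfrsf21, and, among the lower, Cxcl1, Cxcl12, Lif, Cntfr, Il31ra, Il6st, Il1r1 and Il10rb. The other 23 calls were lost there.

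**Figure D1:**
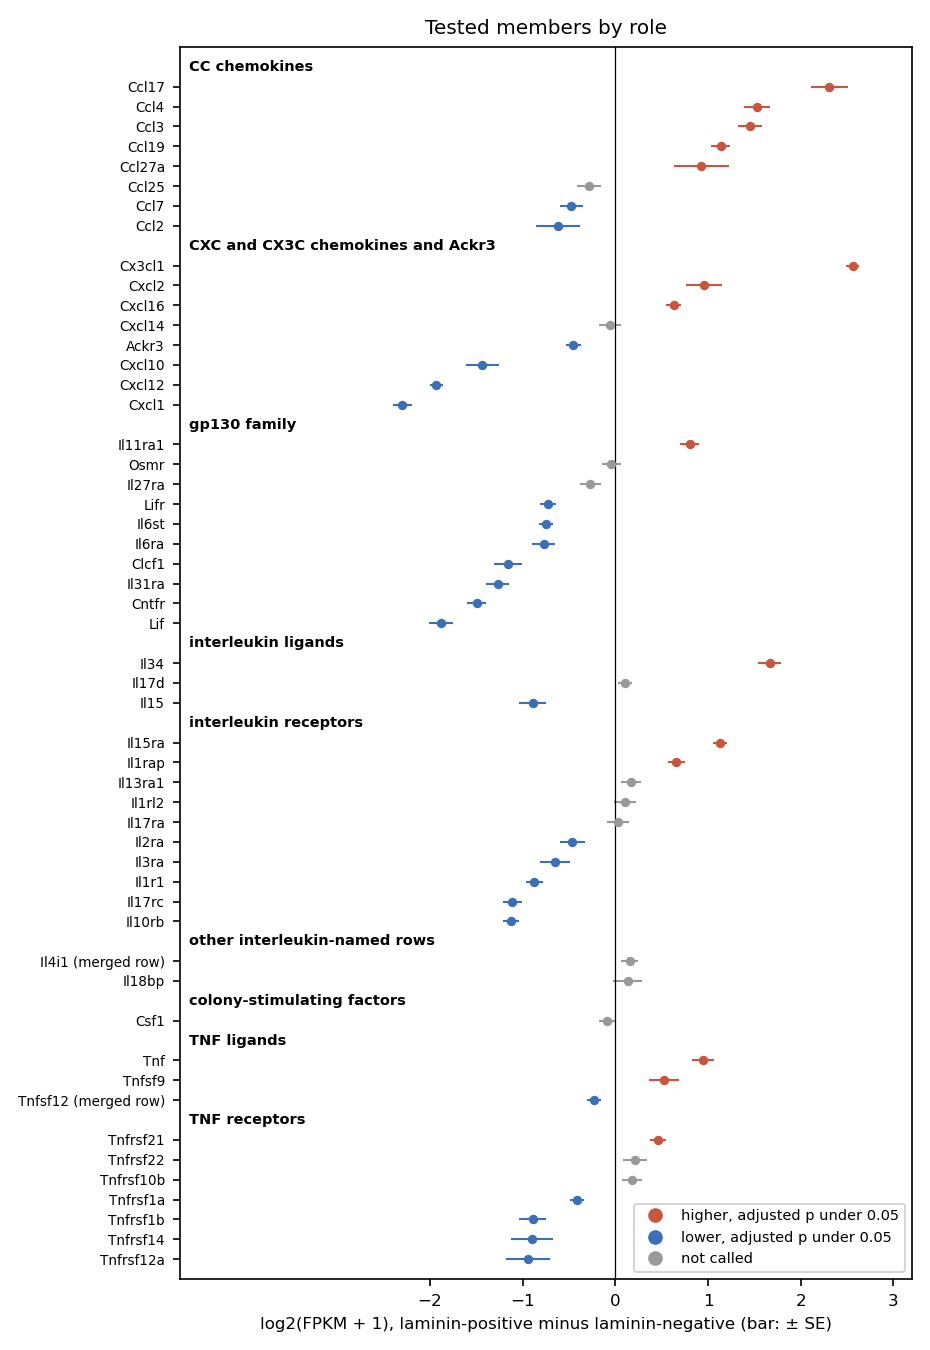
Difference between laminin-positive and laminin-negative cells on the log2(FPKM + 1) scale for each of the 52 tested members, grouped by role, with bars of 1 SE from limma (n = 2 samples per population). Cx3cl1 at 2.56 and Cxcl1 at −2.30 form the ends of the range, and 7 of 10 gp130 family members lie on the lower side as calls.

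Cxcl12, which binds Cxcr4 and Ackr3 and is known for retaining progenitor cells (chromosome 6, 117168535 to 117181367, GRCm38), was the most abundant member in laminin-negative cells. It stood at 359 and 347 FPKM in the laminin-negative and at 89.8 and 93.8 FPKM in the laminin-positive libraries. The populations were far apart, 3.85-fold, with little spread inside either (log2 difference −1.93 ± 0.07 SE, adjusted p = 3.83e-09 by limma). Ackr3, the atypical receptor that scavenges Cxcl12, was also lower in laminin-positive cells, at 25.1 and 23.7 FPKM against 32.4 and 35.2 FPKM (log2 difference −0.45). Cxcr4, the signalling receptor, was near the filter in both, at 0.623 and 0.397 FPKM in laminin-negative and 1.64 and 1.09 FPKM in laminin-positive libraries (limma adjusted p = 0.00483). It passed the filter through laminin-positive libraries alone, so its p-value is to be read with that selection.

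Cx3cl1, the membrane-bound chemokine fractalkine (chromosome 8, 94772009 to 94782427), had the largest rise of the family on the log2(FPKM + 1) scale. Its levels were 27.9 and 28.6 FPKM in the laminin-negative and 169 and 173 FPKM in the laminin-positive libraries. This is a 6.07-fold difference (log2 difference 2.56 ± 0.07 SE, adjusted p = 5.36e-10 by limma), and the replicates almost coincided. Cx3cl1 ranked 11 among the 157 members by mean FPKM in laminin-negative cells and 1 in laminin-positive cells, while Cxcl12 moved from rank 1 to rank 3. The receptor gene Cx3cr1 was under 1 FPKM in every library and was not tested.

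Cxcl1 and Cxcl2, which attract neutrophils through Cxcr2 and lie next to each other on chromosome 5, went in opposite directions. Cxcl1 (90891241 to 90893115) was at 122.5 and 135.5 FPKM in laminin-negative and at 28.7 and 22.5 FPKM in laminin-positive libraries, a 5.03-fold fall and the largest of the family on the log2(FPKM + 1) scale (log2 difference −2.30 ± 0.11 SE, adjusted p = 2.74e-08 by limma). Cxcl2 (90903871 to 90905938) was far less abundant, at 0.307 and 0.841 FPKM in laminin-negative and 1.55 and 2.54 FPKM in laminin-positive libraries. It was called higher (log2 difference 0.95 ± 0.19 SE, adjusted p = 0.00189 by limma), not called on each row's own variance (0.194). The receptor Cxcr2 averaged 0.640 and 0.692 FPKM and was not tested.

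The stretches just upstream of these neighbours are shown because they hold the same motif although the levels went opposite ways. They run from base 100 to base 31 before the RefSeq transcription start, on the plus strand of GRCm38.p6, and the capitals mark matches to the NF-kB consensus on either strand, which overlap each other.
Cxcl1, chr5:90891145-90891214: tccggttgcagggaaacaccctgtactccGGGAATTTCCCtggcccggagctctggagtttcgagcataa
Cxcl2, chr5:90903799-90903868: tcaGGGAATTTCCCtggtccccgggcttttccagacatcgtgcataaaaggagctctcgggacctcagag
The first match began 71 bases before the start in Cxcl1 and 97 bases before it in Cxcl2. In the 250 bases before the start, the motif was found in 7.25% of 32851 RefSeq promoters and in 8 of the 49 promoters (37 genes) that the table held for tested members. The other matching members were Cxcl10, Lif, Cntfr, Il1r1, Il2ra and Csf1. The motif was chosen after these sequences had been seen. A match is a description of the letters and says nothing of binding in these cells.

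Cxcl10, an interferon-induced chemokine (chromosome 5, 92346638 to 92348889), fell 3.001-fold. It was at 13.7 and 19.4 FPKM in laminin-negative and 6.67 and 4.35 FPKM in laminin-positive libraries (log2 difference −1.43 ± 0.18 SE, adjusted p = 6.10e-05 by limma), not called on each row's own variance (0.125). The file gives it the same locus as Art3 and Cxcl11, so the split of reads among them is uncertain. Cxcl16, a transmembrane chemokine, rose from 17.6 and 19.2 to 29.6 and 28.4 FPKM. Cxcl14 did not pass the test, at a mean of 8.30 and 7.98 FPKM (limma adjusted p = 0.694). Of the 8 tested rows of this group, 3 were therefore higher (37.5%, background 26.6%) and 4 lower (50%, background 26.3%).

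**Figure D2:**
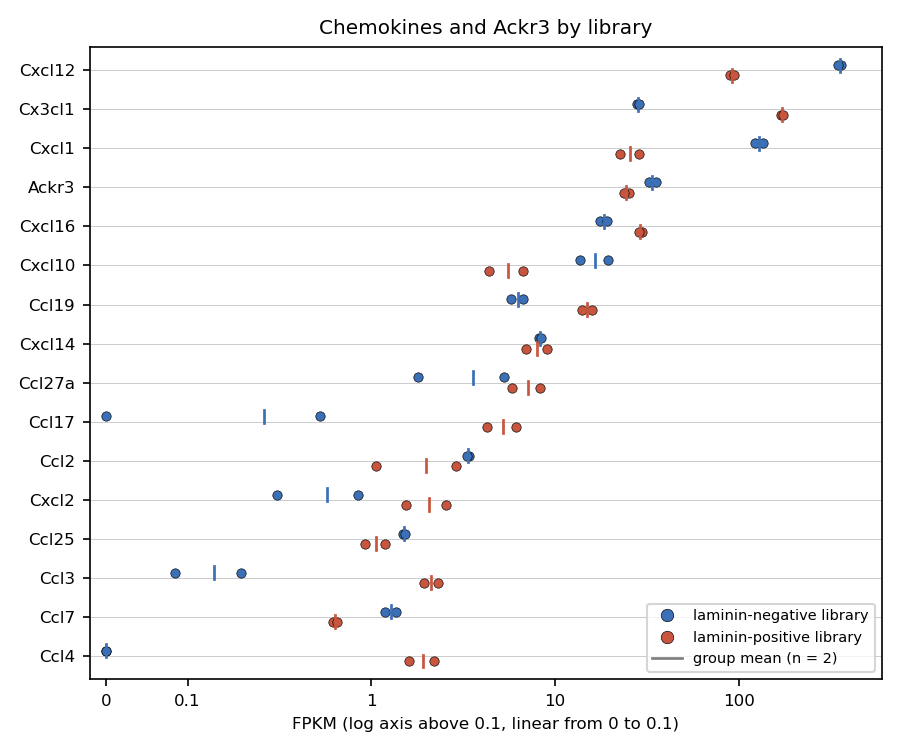
FPKM of the 16 tested chemokine rows, Ackr3 included, in each library (points) with the mean of each population (vertical marks, n = 2), on an axis that is logarithmic above 0.1. Cxcl12 and Cx3cl1 change order between the populations, and Ccl4 is listed at 0 in both laminin-negative libraries.

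CC chemokines were less abundant, and their highest value was 15.9 FPKM, for Ccl19. Of 8 tested, 5 were higher in laminin-positive cells (62.5%, background 26.6%), namely Ccl17, Ccl4, Ccl3, Ccl19 and Ccl27a, and 2 lower (25%, background 26.3%), namely Ccl7 and Ccl2. Of these 7, Ccl17, Ccl3, Ccl4 and Ccl7 passed the filter through a single population. Ccl17, a ligand of Ccr4 (chromosome 8, 94810453 to 94812036), was at 0 and 0.523 FPKM in the laminin-negative and 4.27 and 6.09 FPKM in the laminin-positive libraries (log2 difference 2.31 ± 0.20 SE, adjusted p = 3.72e-06 by limma). On each row's own variance this call was lost (0.0788). Ccl17 lies 28 kb from Cx3cl1, and the pair rose together.

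Ccl3 and Ccl4, inflammatory chemokines that macrophages are known to make, lie 13.2 kb apart on chromosome 11. Ccl3 was at 0.0849 and 0.195 FPKM in laminin-negative and 2.30 and 1.94 FPKM in laminin-positive libraries (log2 difference 1.45 ± 0.13 SE, adjusted p = 5.33e-06 by limma). Ccl4 was listed at 0 in both laminin-negative libraries and at 2.195 and 1.605 FPKM in the others (log2 difference 1.53 ± 0.14 SE, adjusted p = 5.99e-06 by limma). In the same libraries the 15 macrophage markers summed to 11.3 and 5.74 FPKM in laminin-negative and to 65.8 and 57.9 FPKM in laminin-positive cells, and all 10 tested were higher. Of these 10, Adgre1, Mrc1, C1qa, C1qb, C1qc, Tyrobp and Laptm5 passed the filter through laminin-positive libraries alone and could not overlap between the populations. Smooth muscle, pericyte and most tested Sertoli and germ cell markers were higher in laminin-positive cells as well. Adgre1, which encodes F4/80, was at 0.0736 and 0.0414 against 1.26 and 1.34 FPKM, and Csf1r at 0.219 and 0.156 against 3.83 and 3.36 FPKM. None of the 15 markers was at 0 throughout a population, and their part in these results was not tested.

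**Figure D3:**
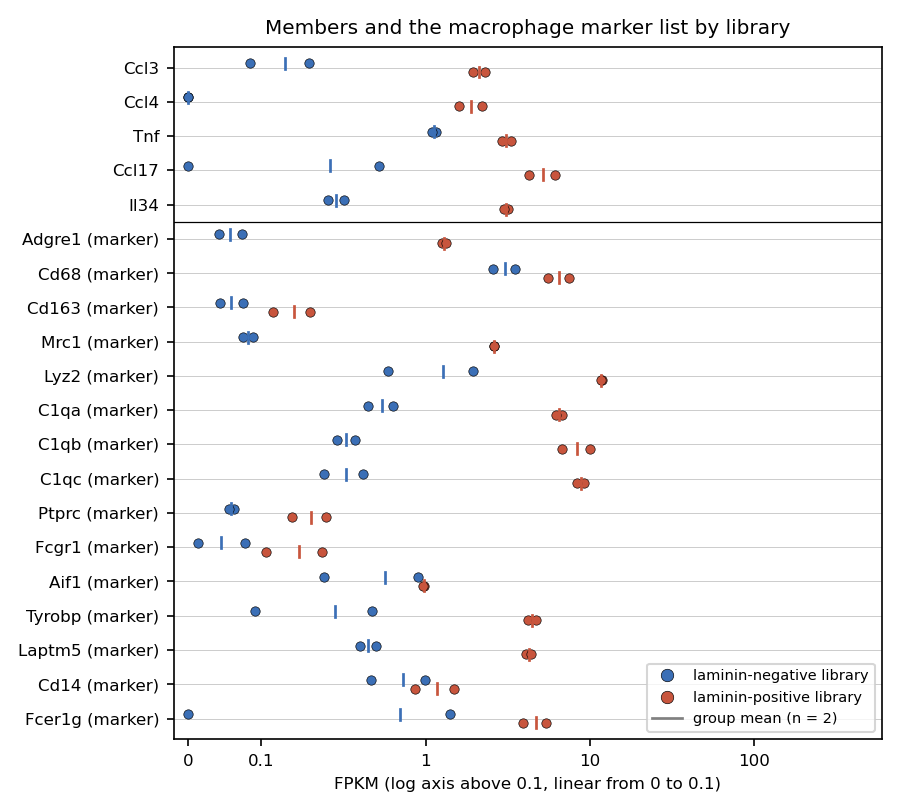
FPKM of Ccl3, Ccl4, Tnf, Ccl17 and Il34 (above the line) and of the 15 listed macrophage markers (below it) in each library, on an axis that is logarithmic above 0.1. The laminin-positive libraries lie above the laminin-negative ones for all 5 members, and Ptprc, Fcgr1 and Cd163 stay under 1 FPKM in every library.

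Ccl19, a ligand of Ccr7, rose 2.39-fold, from 5.78 and 6.72 to 15.9 and 14.0 FPKM (log2 difference 1.14 ± 0.11 SE, adjusted p = 6.29e-06 by limma, and 0.0549 on each row's own variance). Ccl27a, a skin-type chemokine that binds Ccr10, was at 5.30 and 1.80 against 8.31 and 5.85 FPKM, close to overlap. Its log2 difference of 0.93 (limma adjusted p = 0.0220) became 0.34 without laminin-negative replicate 2, where the call was lost (0.149), and 1.51 without laminin-negative replicate 1. The file gives Ccl27a the same locus as Il11ra1, and both have near-identical copies nearby, so their split is uncertain. The monocyte attractants Ccl2 and Ccl7, 8.26 kb apart on chromosome 11, were both lower. Ccl7 had a mean of 1.27 FPKM in the laminin-negative population and 0.635 FPKM in the other. Ccl2 was at 3.38 and 3.31 against 2.90 and 1.05 FPKM, and its call (limma adjusted p = 0.0462) was lost if laminin-negative replicate 1 (0.149) or 2 (0.142) or laminin-positive replicate 2 (0.496) was left out. Its log2 difference of −0.62 was −1.08 without laminin-positive replicate 1 and −0.15 without laminin-positive replicate 2. Ccl25, a ligand of Ccr9, did not pass (limma adjusted p = 0.0822) but was called lower under quantile normalization (0.0360) and with no intensity trend (0.0373).

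The gp130 family fell in laminin-positive cells in 7 of 10 tested rows (70%, background 26.3%) and rose in 1 (10%, background 26.6%). Among the 7, Lif and Il31ra passed the filter through laminin-negative libraries alone. Il31ra was listed with this group although its receptor does not hold gp130. The gp130 ligand Ctf1, which rose, was counted in another list. Il6st, the shared chain itself (chromosome 13, 112464070 to 112510086), was the second most abundant member in each population, at 209 and 196 FPKM in laminin-negative and 115 and 125 FPKM in laminin-positive libraries. It fell 1.69-fold (log2 difference −0.75 ± 0.08 SE, adjusted p = 1.14e-05 by limma). Its partner chain Lifr fell by a like factor, from 33.40 and 29.96 to 18.8 and 18.7 FPKM (1.69-fold). Osmr, the oncostatin M receptor chain, did not pass, with overlapping libraries at 6.34 and 5.70 against 5.79 and 5.82 FPKM (limma adjusted p = 0.744).

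Lif, the leukaemia inhibitory factor that signals through Lifr and Il6st (chromosome 11, 4257557 to 4272514), was at 3.85 and 3.22 FPKM in laminin-negative and 0.228 and 0.226 FPKM in laminin-positive libraries. The log2 difference was −1.88 (SE 0.13, limma adjusted p = 4.91e-07), and the ratio of means, 15.6, rests on values under 1 FPKM and is uncertain in size. Clcf1, a ligand of the Cntfr complex, fell from 10.2 and 7.06 to 3.010 and 3.503 FPKM (log2 difference −1.16 ± 0.15 SE, adjusted p = 7.50e-05 by limma, lost at 0.108 on each row's own variance). Cntfr, the receptor that binds it, fell 3.56-fold, from 8.66 and 8.79 to 2.56 and 2.34 FPKM (log2 difference −1.49 ± 0.10 SE, adjusted p = 6.02e-07 by limma).

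Il6ra, the chain that binds interleukin 6, fell from 3.87 and 3.63 to 1.98 and 1.59 FPKM. Il6 itself was below the filter, at 0.798 and 1.08 FPKM in laminin-negative and 0.151 and 0.0982 FPKM in laminin-positive libraries. Il31ra, which lies 9.81 kb from Il6st, was at 2.03 and 2.18 against 0.334 and 0.242 FPKM (log2 difference −1.27 ± 0.13 SE, adjusted p = 1.03e-05 by limma). Il11ra1, the interleukin 11 receptor, was the member of this group that rose, from 12.1 and 9.86 to 19.6 and 20.1 FPKM (log2 difference 0.81 ± 0.10 SE, adjusted p = 7.15e-05 by limma, and 0.0840 on each row's own variance). Its ligand Il11 reached at most 0.471 FPKM. Il27ra did not pass (limma adjusted p = 0.0659) but was called lower under quantile normalization (0.0254) and with no intensity trend (0.0401).

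**Figure D4:**
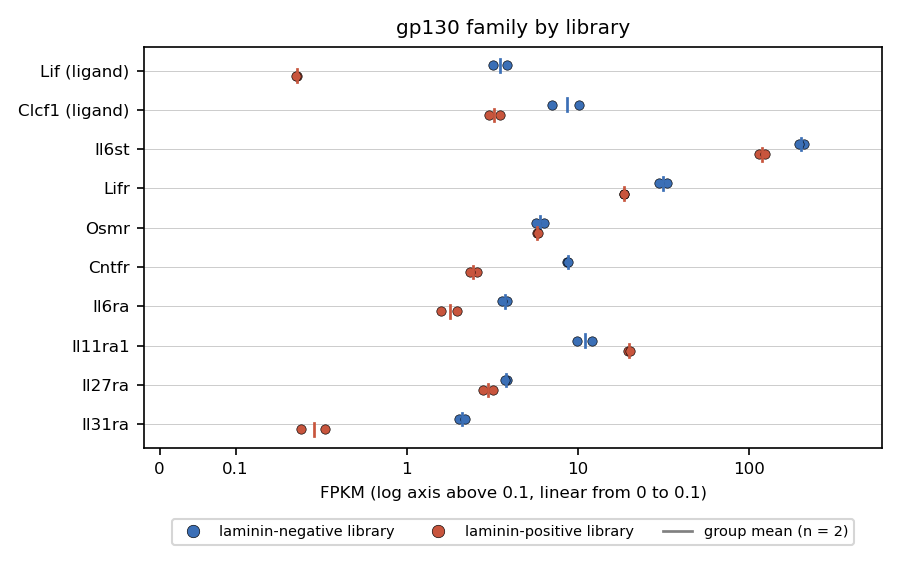
FPKM of the 10 tested gp130 family rows in each library, 2 ligands above and 8 receptor chains below, with the mean of each population (n = 2), on an axis that is logarithmic above 0.1. The laminin-positive points lie to the left in 8 of the 10 rows, those of Osmr overlap, and those of Il11ra1 lie to the right.

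Among interleukin ligands 3 of 34 were tested. Il34, the second ligand of the macrophage receptor Csf1r (chromosome 8, 110741829 to 110805924), was at 0.317 and 0.254 FPKM in laminin-negative and 3.17 and 2.99 FPKM in laminin-positive libraries (log2 difference 1.67 ± 0.12 SE, adjusted p = 9.004e-07 by limma). Csf1, the first ligand, was far more abundant and did not pass the test, with overlapping libraries at 48.2 and 41.7 against 41.1 and 43.1 FPKM (log2 difference −0.09 ± 0.09 SE, adjusted p = 0.416 by limma). Il17d was likewise abundant, at 33.4 and 35.9 against 38.1 and 36.6 FPKM, and did not pass (limma adjusted p = 0.275). With equal FPKM sums it was called higher (0.0358).

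Il15 and its receptor chain Il15ra, which presents the cytokine to other cells, differed in opposite directions. Il15 fell from 6.82 and 5.25 to 2.37 and 3.21 FPKM (log2 difference −0.89 ± 0.15 SE, adjusted p = 4.20e-04 by limma, lost at 0.131 on each row's own variance). Il15ra (chromosome 2, 11705290 to 11734317) rose 2.25-fold, from 18.0 and 18.6 to 41.1 and 41.1 FPKM (log2 difference 1.13 ± 0.08 SE, adjusted p = 4.51e-07 by limma). Its neighbour Il2ra, 12.1 kb away, had a mean of 1.23 FPKM in the laminin-negative population and 0.610 FPKM in the other, a call (limma adjusted p = 0.0140) lost without laminin-negative replicate 2 (0.0711).

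Of 10 tested interleukin receptors outside the gp130 family, 2 were called higher (20%, background 26.6%) and 5 lower (50%, background 26.3%). Il10rb, a chain shared by receptors of the interleukin 10 family, fell from 19.5 and 19.3 to 8.54 and 8.11 FPKM (log2 difference −1.13 ± 0.09 SE, adjusted p = 1.27e-06 by limma). Il17rc, a receptor chain for interleukin 17, fell from 27.0 and 28.5 to 13.5 and 11.2 FPKM (log2 difference −1.11 ± 0.10 SE, adjusted p = 4.34e-06 by limma, and 0.0585 on each row's own variance). Its partner Il17ra did not pass, at a mean of 2.01 and 2.07 FPKM.

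The interleukin 1 receptor chains were split. Il1r1, which binds the cytokine, fell from 12.1 and 11.6 to 5.91 and 6.13 FPKM (log2 difference −0.87), whereas the accessory chain Il1rap rose from 7.21 and 7.21 to 12.2 and 11.8 FPKM (log2 difference 0.66). The ligand genes Il1a and Il1b reached at most 0.163 and 0.311 FPKM. Il3ra fell from 9.002 and 7.220 to 5.87 and 3.85 FPKM, and its call (log2 difference −0.65, limma adjusted p = 0.00595) was lost without laminin-negative replicate 1 (0.0593). Without laminin-positive replicate 2 the log2 difference was −0.40. Il13ra1 and Il1rl2 did not pass. The row that merges Il4i1 with Nup62, a nucleoporin gene, averaged 30.6 and 34.3 FPKM and did not pass either (limma adjusted p = 0.189, but called higher with equal FPKM sums at 0.0323), nor did the interleukin 18 binding protein gene Il18bp.

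Tnf, the founding cytokine of its superfamily (chromosome 17, 35199381 to 35202007), was at 1.16 and 1.10 FPKM in laminin-negative and 2.92 and 3.29 FPKM in laminin-positive libraries (log2 difference 0.94 ± 0.12 SE, adjusted p = 6.46e-05 by limma). It moved with the macrophage markers given above, and with the smooth muscle, pericyte and most tested Sertoli and germ cell markers. The part of none of these was tested. Tnfrsf1a, its broadly expressed receptor (chromosome 6, 125349362 to 125362484), was lower in laminin-positive cells, at 63.1 and 62.7 against 88.0 and 79.9 FPKM (log2 difference −0.41 ± 0.08 SE, adjusted p = 9.61e-04 by limma). The second receptor, Tnfrsf1b, had a mean of 1.45 FPKM in the laminin-negative population and 0.312 FPKM in the other (log2 difference −0.89). The ligand was thus higher where both receptor genes were lower.

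Of 7 tested TNF receptors, 1 was higher, Tnfrsf21 (14.3%, background 26.6%), and 4 lower (57.1%, background 26.3%). Tnfrsf21, also called death receptor 6, rose from 9.25 and 9.28 to 12.9 and 13.3 FPKM (log2 difference 0.46). Tnfrsf12a, the receptor of the ligand Tnfsf12, was at 17.6 and 22.1 against 14.1 and 6.71 FPKM (log2 difference −0.94 ± 0.24 SE, adjusted p = 0.00728 by limma), with a wide spread. Without laminin-negative replicate 2 this call was lost (0.0789), and the log2 difference was −1.43 without laminin-positive replicate 1 and −0.46 without laminin-positive replicate 2. Tnfrsf14 was at 3.30 and 4.75 against 1.04 and 2.50 FPKM (log2 difference −0.90, limma adjusted p = 0.00672), and leaving out laminin-negative replicate 2 ended its call (0.0761). Its log2 difference was −0.51 without laminin-positive replicate 1. Tnfrsf10b and Tnfrsf22 did not pass the test.

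The row that merges the ligands Tnfsf12 and Tnfsf13 was the most abundant TNF ligand row, at 66.2 and 64.2 FPKM in laminin-negative and 54.4 and 56.6 FPKM in laminin-positive libraries. The difference was small (log2 difference −0.23 ± 0.07 SE, adjusted p = 0.0195 by limma). Tnfsf9, the ligand of 4-1BB, was at 6.04 and 6.96 against 12.1 and 7.85 FPKM (log2 difference 0.52, limma adjusted p = 0.0186). The call of the merged row was lost if laminin-negative replicate 1 (0.0531) or laminin-positive replicate 1 (0.147) or 2 (0.0636) was left out and with equal FPKM sums (0.268). That of Tnfsf9 was lost without laminin-negative replicate 1 (0.113) or laminin-positive replicate 1 (0.220), and its log2 difference ran from 0.24 to 0.81 with either laminin-positive library left out. The bone regulators Tnfsf11 and Tnfrsf11b (osteoprotegerin) reached at most 0.238 and 0.229 FPKM.

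Within 100 kb, 10 pairs of tested members with annotated coordinates were neighbours. Both genes were called in the same direction in 5 pairs and in opposite directions in 4. The same count was not made over all tested rows, so these numbers are a description only. Il11ra1 and Ccl27a overlap and have the same locus in the file. The limits given above for Ccl27a, Ccl2, Il2ra and the members that passed the filter through a single population hold here too. The pairs that rose together were Cx3cl1 with Ccl17, Ccl3 with Ccl4 and Il11ra1 with Ccl27a, and those that fell together were Ccl2 with Ccl7 and Il6st with Il31ra. Opposite calls were made for Cxcl1 and Cxcl2, Il2ra and Il15ra, and Cntfr with Il11ra1 and with Ccl27a. Upstream of Ccl17 the letters TTCNNNGAA, a STAT-type sequence that reads the same on both strands, began 99 bases before the start, as the capitals show.
Ccl17, chr8:94810353-94810422, GRCm38.p6, plus strand, from base 100 to base 31 before the start: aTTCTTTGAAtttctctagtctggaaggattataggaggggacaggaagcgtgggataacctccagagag
This motif was in 7.02% of the RefSeq promoters and in 5 of the 49 promoters of tested members. Cx3cl1 was not among the tested members with a match, and promoters were held for only 37 member genes.

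Other genes of these pathways were read from 6 lists. Some of them passed the filter through a single population, so their libraries could not overlap between the populations. These genes were Ackr1, Ackr2 and Traf1, high in laminin-negative cells, and Cxcr4, Cd40 and Csf1r, high in laminin-positive cells. Their calls and p-values, and the shares of their lists, are to be read with that selection. Of 6 tested chemokine receptors, 2 were higher in laminin-positive cells (33.3%, background 26.6%), Cxcr4 and Ccrl2, and 3 lower (50%, background 26.3%), Ccr10, Ackr1 and Ackr2. Ackr1, an atypical receptor that binds many inflammatory chemokines, was at 3.23 and 4.06 FPKM in laminin-negative and 0 and 0.196 FPKM in laminin-positive libraries (log2 difference −2.08 ± 0.15 SE, adjusted p = 6.15e-07 by limma). Ackr2 averaged 1.58 and 0.128 FPKM, and Ackr4 did not pass the test. Cxcr1, Cxcr3, Cxcr5 and Cxcr6 were below the filter and were not tested.

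Among 20 tested JAK, STAT and SOCS genes, 5 were higher, 6 lower and 9 not called, with a median log2 difference of 0.03. The 55% called lie near the 52.9% called over all rows. Socs3, an inhibitor induced by gp130 signalling, was abundant and did not pass, at 365 and 351 against 336 and 321 FPKM (limma adjusted p = 0.183). Stat3, the main transcription factor downstream of gp130, averaged 30.6 and 32.5 FPKM (limma adjusted p = 0.377). Socs1 fell from 37.2 and 31.2 to 17.9 and 16.7 FPKM, and Cish rose from 14.1 and 13.3 to 24.6 and 20.7 FPKM.

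NF-kB and TNF receptor signalling genes counted 6 higher and 9 lower of 33, with a median of 0.03, and the 45.5% called were below the 52.9% of all rows. The adaptor genes included the widest differences, with Traf1 at 3.69 and 3.30 against 0.164 and 0.0916 FPKM (log2 difference −1.99) and Traf5 at 3.54 and 4.69 against 20.7 and 20.5 FPKM (log2 difference 2.09). Tradd, the adaptor of Tnfrsf1a, fell 2.87-fold, and the NF-kB inhibitor Tnfaip3 rose 2.51-fold. Nfkbia and Rela did not pass the test.

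In the list drawn up for gp130 and colony-stimulating factor partners, 5 of 5 tested rows were higher in laminin-positive cells (background 26.6%). Among them was the gp130 ligand cardiotrophin 1 (Ctf1), from 4.71 and 5.07 to 11.4 and 11.9 FPKM (log2 difference 1.10). Its direction was opposite to that of Lif and Clcf1. The others were Csf1r, Csf2ra, Crlf2 and a row that merges Cntf with Zfp91. Crlf2 was listed but is a partner of neither. The level of the merged row cannot be assigned to Cntf, and Csf1r passed the filter through laminin-positive libraries alone. TNF superfamily genes under other names were higher in 2 (33.3%, background 26.6%) and lower in 3 (50%, background 26.3%) of 6 tested cases, with Cd40 at 0.253 and 0.160 against 2.69 and 3.23 FPKM (log2 difference 1.71). Interferon receptors and interferon regulatory factors were higher in 1 (9.09%, background 26.6%) and lower in 7 (63.6%, background 26.3%) of 11 tested cases, with a median of −0.29, and Irf5 fell most (log2 difference −1.63).

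The remaining 105 members were below the filter. Of these, 24 were listed at 0 in every library and 74 were seen above 0 but stayed under 1 FPKM in every library. The other 7 reached 1 FPKM in a single library, namely Il6, Il18, Il17b, Il17re, Ccl5, Tnfrsf18 and Tnfrsf25. Ccl5, a T cell and macrophage chemokine, was at 2.44 FPKM in laminin-negative replicate 2 and listed at 0 in the others. Il17b was listed at 0 in both laminin-negative libraries and at 0.605 and 1.85 FPKM in the laminin-positive ones. The file also gives 1 locus to Cxcl16 and Zmynd15, to Il27ra and Palm3, to Il1rap and Gm20319, to Tnfsf9 and Gm11110, and to Tnfrsf12a with Ccdc64b, Hcfc1r1 and Thoc6, so the split of reads is uncertain for these members too. Just inside the filter lay Il2ra and Il18bp, whose second highest libraries read 1.05 and 1.07 FPKM, and just outside it Tnfrsf25 and Il18, at 0.913 and 0.911 FPKM.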

How the data were processed

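RNA sequencing values of 4 libraries (2 per population) were taken from the deposited table of 22802 rows, whose unit is FPKM per the file headers. TopHat2 2.1.1 and Cufflinks 2.2.1 were used, per the submitters' processing notes, which give no roles. Not given in the sources used here are the build, the annotation, the strand setting and any scaling of libraries. FPKM keep no read counts, so the depth is unknown. Of 21203 rows with a unique symbol, 99.6% overlapped the GENCODE M21 gene of that symbol on GRCm38, whose coordinates are printed. Upstream sequences are from RefSeq (GRCm38.p6).

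Rows at 1 FPKM or more in 2 libraries (12348) were fitted on log2(FPKM + 1), which understates changes of low genes, with limma 3.58.1 in R 4.3.3 (empirical Bayes, intensity trend, two-sided, Benjamini-Hochberg adjustment, threshold 0.05). Residual degrees of freedom were 2, and the prior added 8.21 (median). An exact permutation test of 2 against 2 cannot go below p = 0.333 and was not used. Folds are ratios of mean FPKM. The fit was run on simulated data in which few rows changed, unlike here. That run does not measure error rates in these data. Members and lists were chosen with earlier results of these data known. The text names the 12 largest called differences in each direction, the 10 most abundant members, a preset set of gp130, chemokine and TNF genes, members below the filter that reach 1 FPKM in 1 library, and calls lost without 1 library. The remaining tested members complete each role group. Of 215 listed genes, 214 were found, 1 by an older symbol. A row that names a CC chemokine after another gene was outside the rule. The 15 alternatives covered pseudocount, filter, scaling, variance model, replicate block, left-out libraries and merged rows.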

Additional observations from a re-analysis of the deposited data

How the results depend on the processing

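Over the 15 alternatives no called member changed direction, 16 of 39 calls held in every alternative that tested them, and 23 were lost in at least 1, all of them without variance shared across genes. Of the uncalled members 4 gained a call in at least 1 alternative. That setting reduced the calls over all rows from 6533 to 2557, the members called from 15 higher and 24 lower to 8 and 8, and the listed pathway genes called from 49 to 13. Leaving out 1 library gave 5197 to 6318 calls over all rows, 14 to 15 members higher, 20 to 23 lower and 38 to 44 pathway genes. The median log2 difference of tested members, −0.1584, was −0.0056 without a filter and −0.0393 with equal FPKM sums, and ran from −0.2202 to −0.1376 with 1 library left out. Uncalled members changed sign in 9 cases. With equal FPKM sums Csf1 was at 0.0316, Cxcl14 at 0.0474 and Osmr at 0.06, and under quantile normalization Il17ra was at −0.0636. With 1 library left out, Csf1 ran from −0.1891 to 0.0149, Osmr from −0.1095 to 0.022, Cxcl14 from −0.2313 to 0.11, Il17ra from −0.0449 to 0.1012 and Il18bp from −0.0582 to 0.3293. Where the cause of a change is not the setting's own construction, the cause was not tested. The replicate numbers did not show pairing (correlation of deviations 0.01), and the replicate block gave 6719 calls over all rows, 15 members higher and 24 lower. The size of log2 differences under about 1 FPKM depends on the pseudocount, since Lif went from −1.88 to −3.47 and Ccl4 from 1.53 to 4.31 at 0.1. Where a library was left out, the lone sample of its group was assumed to vary like the other group. Depth limits all statements on the 105 members below the filter.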
